A study of Homo sapiens with 2 samples.

Results

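The peaks described here are the exonic ING5 peaks that lay outside promoters: their summit was more than 1000 bp from every annotated transcription start site (TSS) of a protein-coding or long noncoding RNA gene, and inside an exon of a protein-coding gene. There were 232 of them among 8608 peaks, or 2.70% of the 8589 with a place on an autosome or chromosome X (exact binomial 95% interval 2.37 to 3.07). Peaks in 2 dense stretches, the first 46000000 bp of chromosome 5 and the 2 Mb of chromosome 11 that end at position 5000000, were left out. The choice used position only, not the height or length of a peak.

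The list came from 1 ChIP-seq library made with an ING5 antibody (Proteintech) from untreated HepG2 cells, a human liver cancer line, with 1 input DNA library of the same untreated line as its control. The peak caller reported a total of 12416160 fragments for ING5 and 9915170 for input. Neither had a replicate, so no test between conditions was possible. Intervals of shares and rates cover counting error only, and those of medians the spread from peak to peak within this library. None covers variation between libraries. All positions are GRCh38. None of the 18 hepatocyte markers examined, among them ALB and HNF4A, hosted an exonic peak, where 1.12% of all protein-coding genes did, and none had a promoter peak, where 30.8% did. A peak does not measure expression.

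ING5 carries a plant homeodomain finger that reads methylated lysine 4 of histone H3, and it is a subunit of the MYST-family histone acetyltransferase complexes built around KAT6A, KAT6B and KAT7. That methyl mark is known to gather at gene starts and over CpG-rich DNA, where the C of a CpG is mostly unmethylated. In a typical gene the first exon begins at the TSS, inner exons are mostly coding, and the last exon holds the end of the coding sequence and the 3′ untranslated region (UTR).

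The sequence under the summit is shown for 5 exonic peaks, all chosen with a wholly coding window, so that the CpG content compared further on can be seen in the letters. The first 4 are the most significant peaks with a wholly coding window in a single-exon transcript, a first exon, an inner exon and a last exon. The fifth is the most significant such peak more than 10 kb from a TSS. Each run covers 201 bases centred on the summit, 5′ to 3′ on the strand of the gene, with every CpG in capitals. The letters are those of the GENCODE 44 transcript as mapped to GRCh37, and the positions are those of the peak list in GRCh38.
IRF2BPL (chr14:77026599-77026799, minus strand): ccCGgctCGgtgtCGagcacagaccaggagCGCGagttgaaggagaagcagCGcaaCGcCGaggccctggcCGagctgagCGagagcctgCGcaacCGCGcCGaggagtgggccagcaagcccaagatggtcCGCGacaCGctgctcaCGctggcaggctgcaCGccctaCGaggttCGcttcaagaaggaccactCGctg
IRS2 (chr13:109784230-109784430, minus strand): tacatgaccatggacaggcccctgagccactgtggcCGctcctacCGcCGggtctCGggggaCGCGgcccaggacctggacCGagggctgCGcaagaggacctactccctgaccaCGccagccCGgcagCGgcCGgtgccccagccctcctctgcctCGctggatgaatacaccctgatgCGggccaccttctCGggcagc
CPEB3 (chr10:92239540-92239740, minus strand): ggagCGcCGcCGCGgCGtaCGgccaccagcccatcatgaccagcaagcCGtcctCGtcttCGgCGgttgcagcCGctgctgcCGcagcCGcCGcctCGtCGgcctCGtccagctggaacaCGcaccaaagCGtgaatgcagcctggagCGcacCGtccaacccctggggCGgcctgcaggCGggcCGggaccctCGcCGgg
MID1IP1 (chrX:38805041-38805241, plus strand): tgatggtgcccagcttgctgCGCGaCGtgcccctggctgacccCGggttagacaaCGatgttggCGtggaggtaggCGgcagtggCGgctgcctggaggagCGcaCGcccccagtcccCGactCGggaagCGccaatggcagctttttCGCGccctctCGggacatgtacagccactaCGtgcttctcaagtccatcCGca
DIDO1 (chr20:62880850-62881050, minus strand): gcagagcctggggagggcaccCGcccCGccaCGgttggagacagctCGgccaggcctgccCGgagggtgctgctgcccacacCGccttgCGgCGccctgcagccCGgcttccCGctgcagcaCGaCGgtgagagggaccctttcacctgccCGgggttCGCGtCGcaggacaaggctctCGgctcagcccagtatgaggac
These windows held 22 CpGs in IRF2BPL, 15 in IRS2, 26 in CPEB3, 18 in MID1IP1 and 17 in DIDO1. The peaks themselves differed widely in height: the pileup, the number of fragments over the summit as the authors' peak caller gave it, was 35 in IRF2BPL, 40 in IRS2, 26 in CPEB3, 34 in MID1IP1 and 11 in DIDO1.

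Most exonic peaks were low and short, and a small group reached 20 or more fragments. That height was found at 8.19% of exonic, 2.35% of intronic, 8.28% of intergenic and 10.02% of promoter peaks. The median pileup of the exonic peaks was 10 fragments, with quartiles of 8 and 13 and a range of 7 to 42. The median fold enrichment over local background was 5.74 (5.40 to 5.94), and the median length was 266.5 bp (247 to 287), with a range of 183 to 3747 bp. At the low end, 62 of the 232 peaks (26.7%) had 8 fragments or fewer. At the high end, 45 had 15 or more (19.4%, 14.5 to 25.1), where the share was 12.3% over all peaks outside promoters and 26.8% over all peaks of the list apart from the dense stretches. A pileup of 20 or more was found at 19 exonic peaks, and each of those 19 was at least 500 bp long. Taller peaks were longer, with a Spearman rank correlation of 0.53 between length and pileup over the 232 peaks, which share 1 library. The local background was at its genome-wide lowest value, 0.853 fragments, at 160 of the 232 peaks (69.0%, 62.6 to 74.9). The share was 72.3% of intronic, 62.7% of intergenic and 62.8% of promoter peaks, so it was not particular to exonic peaks.

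By exon position, 105 summits (45.3%, 38.7 to 51.9) lay in a last exon, 88 (37.9%) in an inner exon, 20 (8.62%) in the first of several exons and 19 (8.19%) in a single-exon transcript. Of these 19, 18 lay in the canonical transcript of a single-exon gene, and the other, at VMP1 with 10 fragments, lay in a noncanonical retained-intron transcript. The transcript that gave the position was the canonical one for 200 of the 232. The median exon number was 3.5 of a median of 6 exons, and the range ran to exon 62. Of the 232 summits, 39 lay in exon 1, 53 in exon 2, 24 in exon 3, 18 in exon 4 and 98 in exon 5 or later. Of the 105 last exons, 27 belonged to transcripts with 2 exons.

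The median pileup and length were highest in single-exon transcripts and next highest in first exons. The median pileup was 15 fragments in single-exon transcripts (95% interval 11 to 24) and 12 in first exons (10 to 15), against 10 in inner exons (9 to 10) and 10 in last exons (9 to 10). Pileup is not corrected for local background. Median fold enrichment, which is relative to it, was 7.55 (5.94 to 13.5) in single-exon transcripts and 6.47 (5.36 to 7.55) in first exons. It was 5.40 (5.33 to 5.94) in inner and 5.40 (5.05 to 5.94) in last exons. Of the peaks at the genome-wide background, 3.75% were in single-exon transcripts, against 8.19% of all 232. The median length was 602 bp in single-exon transcripts (293 to 1202), 403 bp in first exons (285 to 624), 258 bp in inner exons (232 to 285) and 247 bp in last exons (227 to 268). The groups overlapped from peak to peak: single-exon transcripts held pileups from 8 to 42 and last exons from 7 to 36. A pileup of 20 or more was found at 8 of 19 peaks in single-exon transcripts (42.1%, 20.3 to 66.5), 2 of 20 in first exons, 2 of 88 in inner exons and 7 of 105 in last exons. These positions also differ in distance from a TSS. Nearly all peaks of single-exon transcripts (18 of 19) and first exons (19 of 20) lay within 2 kb of a TSS, against 40 of 88 in inner and 38 of 105 in last exons. Within 2 kb alone, the median pileup was 14 in single-exon transcripts (11 to 23), 12 in first exons (10 to 16), 10 in inner exons (9 to 11) and 11 in last exons (10 to 15), so that the intervals of single-exon and last exons overlapped there. Median length there was 743 bp in single-exon transcripts (293 to 1202) and 393 bp in first exons (261 to 641). It was 290 bp in inner exons (227 to 326) and 310.5 bp in last exons (245 to 383), and all these length intervals overlapped. Median fold enrichment within 2 kb was 7.45 (5.94 to 12.5) in single-exon transcripts and 6.47 (5.36 to 9.17) in first exons. It was 5.94 (5.10 to 6.32) in inner exons and 6.03 (5.40 to 7.79) in last exons, and these intervals overlapped as well.

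**Figure D1:**
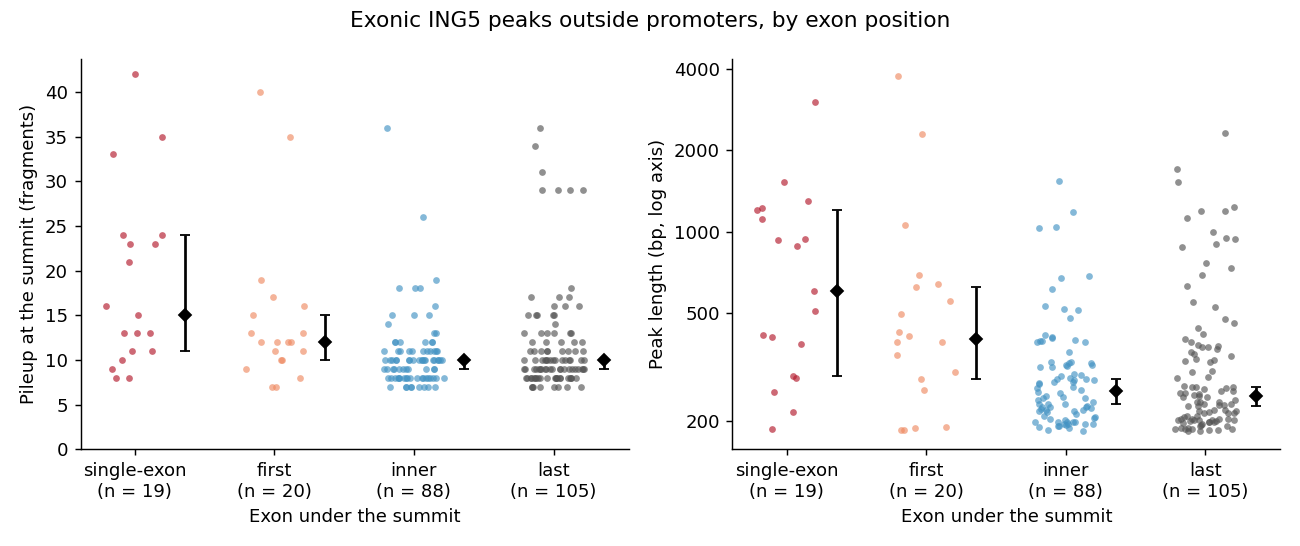
Pileup at the summit (left, fragments) and peak length (right, bp, log axis) of the 232 exonic peaks, 1 point a peak, by the position of the exon under the summit; diamonds and bars are medians with 95% intervals. The median pileup is 15 in single-exon transcripts and 12 in first exons, against 10 in inner and last exons, with overlap between all 4 groups.

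In single-exon transcripts the tallest peak was at RHOB, which encodes a small GTPase. It covered 1531 bp (chr2:20447346-20448876) with 42 fragments and 23.2-fold enrichment, and its summit was in the 3′ UTR, 1021 bp downstream of the TSS. IRF2BPL, a gene for a protein related to interferon regulatory factor 2 binding proteins, held a peak of 3022 bp (chr14:77025360-77028381) with 35 fragments and 19.4-fold enrichment. Its summit lay in the coding sequence 2009 bp downstream of its own start and 1387 bp from the start of a long noncoding RNA, and the peak reached that start. FOXC1, a forkhead transcription factor gene of eye and heart development, had 33 fragments and 15.1-fold enrichment over 510 bp (chr6:1611713-1612222), with the summit in the coding sequence 2138 bp from the TSS. All 3 stood well above the median of 15 fragments for this position, although the FOXC1 peak was shorter than the median length.

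The other single-exon peaks with 20 or more fragments, picked with their values in view, lay at CITED4 and GAS1 with 24 each, BORCS6 and IER5 with 23 each, and HEXIM1 with 21. CITED4 encodes a transcriptional coactivator, GAS1 a growth arrest protein of the cell surface, BORCS6 a subunit of a lysosome-positioning complex, IER5 an immediate early response protein, and HEXIM1 an inhibitor of the elongation kinase P-TEFb. The summits of CITED4, BORCS6 and IER5 were in the 3′ UTR and those of GAS1 and HEXIM1 in coding sequence. Of the 190 host genes with a summit in an exon of their canonical transcript, 18 had a single exon (9.47%, 5.71 to 14.6), against 1072 of all 19819 protein-coding genes (5.41%).

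In first exons the tallest peak was at IRS2, which encodes an adaptor of the insulin receptor. It was also the longest exonic peak, with 3747 bp (chr13:109780876-109784622), 40 fragments and 22.1-fold enrichment, and its summit lay in the coding sequence of a first exon of 4542 bp. LRFN4, a gene for a synaptic adhesion protein with leucine-rich repeats, had 35 fragments and 19.4-fold enrichment over 2299 bp (chr11:66857405-66859703). JMY, which encodes a p53 cofactor that also nucleates actin, had 19 fragments and 10.8-fold enrichment over 641 bp (chr5:79237060-79237700). The first 2 peaks stood well above the median of 12 fragments for this position, and first exons long enough to reach past 1000 bp were rare: they made up 0.384% of the canonical exon bases that far from a TSS.

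In inner exons 2 peaks stood apart from the rest. PIM1, a serine/threonine kinase gene, had 36 fragments and 19.96-fold enrichment over 1532 bp (chr6:37170277-37171808), with its summit in exon 4 of 6 and 1009 bp from the nearest TSS. CPEB3, which encodes a cytoplasmic polyadenylation factor, had 26 fragments and 14.6-fold enrichment over 1042 bp (chr10:92239248-92240289), in exon 2 of 10. That summit was 51438 bp downstream of the start of its transcript but 3606 bp from another annotated start of the same gene. The next was NCOA7, a nuclear receptor coactivator gene, with 19 fragments in exon 12 of 16 (chr6:125920656-125921342). No other inner exon reached 19 fragments.

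In last exons the tallest peaks were at CDKN2C, MID1IP1 and ZNF703. CDKN2C, which encodes the INK4-type inhibitor p18, had 36 fragments and 16.4-fold enrichment, with a raised local background of 1.25, over 951 bp (chr1:50973552-50974502), 3863 bp from the TSS in exon 2 of 2. MID1IP1, a gene for an activator of acetyl-CoA carboxylase in fatty acid synthesis, had 34 fragments and 18.9-fold enrichment over 1706 bp (chrX:38804301-38806006). ZNF703, a zinc finger corepressor gene, had 31 fragments and 17.3-fold enrichment over 1526 bp (chr8:37697157-37698682), again in exon 2 of 2.

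Below these, 4 last-exon peaks had 29 fragments, 16.2-fold enrichment and the same significance. They lay at the paralogues ZFP36L1 and ZFP36L2, which encode proteins that bind AU-rich mRNA and promote its decay, at the kinase gene PIM3 and at AJM1, a gene for an apical junction protein. Their lengths differed, with 736 bp at ZFP36L1, 2307 bp at ZFP36L2, 1192 bp at PIM3 and 528 bp at AJM1. The PIM3 peak also overlapped the hairpin of the microRNA gene MIR6821, the only exonic peak that overlapped an annotated hairpin. PIM3 and AJM1 were picked with their values in view.

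The shortest exonic peaks were 183 bp at SLC7A5 and STK4 and 184 bp at EFCAB2, about the fragment size of 183 bp that the peak caller reported. SLC7A5, a large neutral amino acid transporter gene, had 12 fragments in exon 2 of 10. STK4, a kinase gene of the Hippo pathway, had 9 in its 3′ UTR, and EFCAB2 had 12 in an exon of a transcript without a coding sequence.

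By coding place, 160 of the 232 summits (69.0%, 62.6 to 74.9) lay in coding sequence, 47 (20.3%) in a 3′ UTR, 4 (1.72%) in a 5′ UTR and 21 (9.05%) in an exon of a transcript without a coding sequence. Many of those 21 transcripts were annotated as retained introns, among them those at NPM1, TFAP2A and RPLP0. Among the 19 peaks with 20 or more fragments, 15 were coding and 4 were in a 3′ UTR. Inner exons were coding at 77 of 88 summits, and last exons at 56 of 105, with 39 more in the 3′ UTR. Coding windows were a larger share at the peaks than along canonical exons more than 1000 bp from a TSS. They were 140 of 228 at peaks with sequence, noncanonical exons included, and 130458 of 295796 along the exons. At 5 to 10 kb the shares were close, 10 of 26 at peaks and 26933 of 67629 along exons. The UTR shares, and those by exon position and for tall peaks, were not compared with exon sequence in general. The 32 summits found only in exons of noncanonical transcripts had a median of 9.5 fragments (8 to 11), against 10 (10 to 11) for the 200 in canonical exons, and at most 18. The peak lay wholly inside the exon at 141 of the 232 and was longer than the exon at 51. The exons had a median length of 1191.5 bp, and the summit lay a median of 422 bp from the 5′ end of its exon. Longer exons offer more places for a summit beyond the 1000 bp limit. Neither value was compared with exon sequence in general, so neither can be read as a trait of the peaks.

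Exonic peaks thinned out and became lower with distance from a TSS. Of the 232, 115 (49.6%, 43.0 to 56.2) were 1 to 2 kb from the nearest TSS, 65 were 2 to 5 kb away, 27 were 5 to 10 kb away and 25 were more than 10 kb away. The median pileup was 11 fragments (10 to 12) at 1 to 2 kb, 10 (9 to 10) at 2 to 5 kb, 9 (8 to 10) at 5 to 10 kb and 9 (8 to 10) beyond 10 kb. A pileup of 15 or more was found at 35 of 115 peaks at 1 to 2 kb (30.4%, 22.2 to 39.7), 9 of 65 at 2 to 5 kb, none of 27 at 5 to 10 kb (upper bound 12.8%) and 1 of 25 beyond 10 kb. Spearman's rank correlation between distance and pileup was −0.28 over the 232 peaks, given as a description. Of the 19 peaks with 20 or more fragments, 17 lay within 2.5 kb of a TSS, and the other two were CDKN2C and CPEB3.

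**Figure D2:**
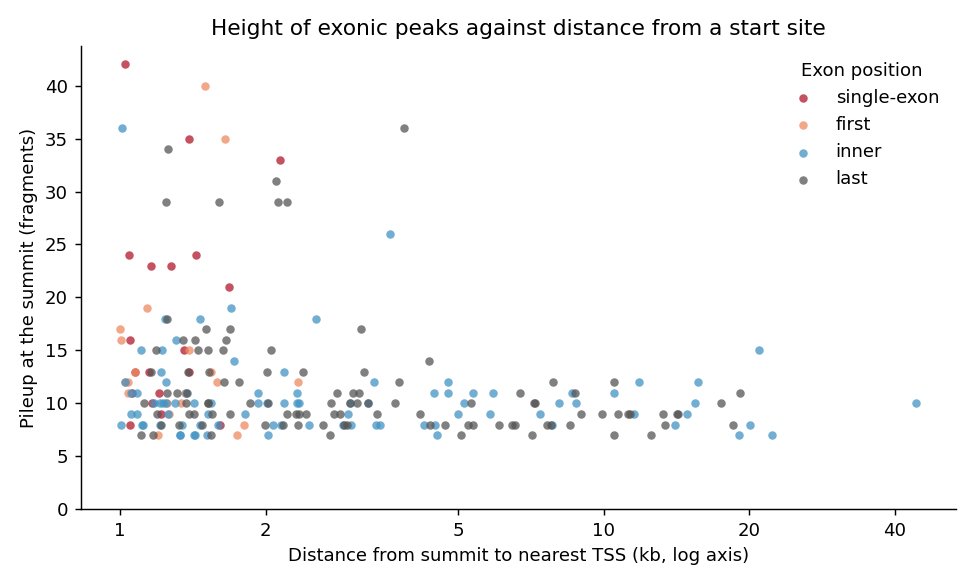
Pileup at the summit (fragments) of each of the 232 exonic peaks against the distance from its summit to the nearest TSS (kb, log axis), coloured by exon position. Peaks with 20 or more fragments end at CDKN2C, 3863 bp from a TSS, while peaks of 7 to 15 fragments run on to 44186 bp.

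The 25 peaks beyond 10 kb lay in inner exons (12) and last exons (13). RASA3, a Ras GTPase-activating protein gene, had the tallest of them, with 15 fragments in exon 14 of 24, 20932 bp from the nearest TSS, over a local background of 1.25. DIDO1, a chromatin reader gene whose window is shown above, had 11 fragments in exon 16 of 16, and COL5A1, a fibrillar collagen gene, had 7 in exon 12 of 66. The most distant was in CORO2B, an actin-binding protein gene, with 10 fragments at 44186 bp. RASA3, DIDO1 and CORO2B were picked with their values in view.

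Per length of sequence, exons more than 1000 bp from a TSS held more peaks than introns or intergenic sequence at the same distance. Over all distances there were 3.30 peaks per Mb of exon (exact Poisson 95% interval 2.89 to 3.75, over 70.3 Mb), against 0.663 per Mb of intron (0.616 to 0.714) and 0.277 per Mb of intergenic sequence (0.252 to 0.303). At 1 to 2 kb the rates were 9.79 per Mb in exons (8.08 to 11.8), 4.11 in introns (3.67 to 4.59) and 2.02 in intergenic sequence (1.60 to 2.52). At 2 to 5 kb they were 3.29 in exons (2.54 to 4.19), 1.10 in introns (0.946 to 1.27) and 0.868 in intergenic sequence (0.699 to 1.06). At 5 to 10 kb they were 1.76 in exons (1.16 to 2.56), 0.463 in introns (0.370 to 0.571) and 0.554 in intergenic sequence (0.441 to 0.688). Beyond 10 kb they were 1.07 in exons (0.692 to 1.58), 0.212 in introns (0.178 to 0.250) and 0.151 in intergenic sequence (0.131 to 0.173). The exon interval lay above the other two in all 4 distance ranges. Base content was available for exons alone, and its part in the rates was not tested.

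**Figure D3:**
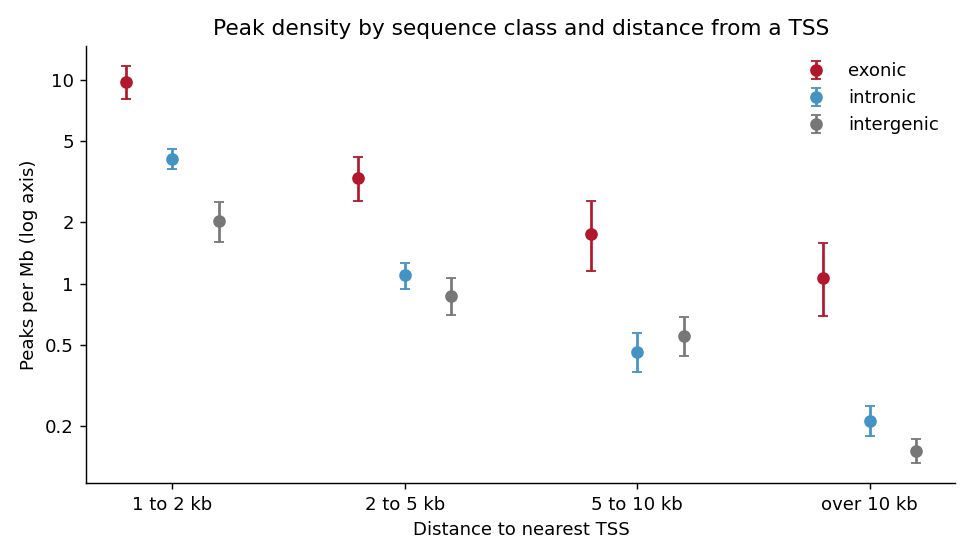
ING5 peaks per Mb of exonic, intronic and intergenic sequence (log axis) in 4 ranges of distance to the nearest TSS, with exact Poisson 95% intervals. Exonic sequence is highest in each range, from 9.79 per Mb at 1 to 2 kb to 1.07 beyond 10 kb.

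Among canonical exons at 1 to 2 kb, the rate was highest in first exons, with 113 peaks per Mb (64.4 to 183), from 16 peaks in 0.142 Mb. It was 39.1 per Mb in single-exon transcripts (22.8 to 62.5), 11.7 in inner exons (8.04 to 16.4) and 9.30 in last exons (6.44 to 13.0). Last exons held 44.5% of peaks in canonical exons and 66.2% of the canonical exon bases more than 1000 bp from a TSS. Inner exons held 38% of those peaks and 31.8% of the bases, and single-exon transcripts 9% of the peaks and 1.66% of the bases.

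Against peaks in introns at matched distance, the medians were close, and the share of tall peaks was larger at 1 to 2 kb but not beyond 5 kb. At 1 to 2 kb the median pileup was 11 (10 to 12) at exonic and 11 (10 to 11) at intronic peaks, and the median length 326 bp (287 to 391) against 282 bp (258 to 309). A pileup of 15 or more was found at 30.4% of exonic peaks (22.2 to 39.7) at that distance. The shares there were 16.5% of intronic peaks (12.5 to 21.1) and 16.5% of intergenic peaks (9.06 to 26.5). At 2 to 5 kb the shares were 13.8% (6.53 to 24.7) of exonic and 3.21% (1.19 to 6.85) of intronic peaks, and intergenic peaks there reached 15.2% (8.58 to 24.2). The intervals at 1 to 2 kb do not overlap between exons and introns, but those of exonic and intergenic peaks do. At 2 to 5 kb the exonic interval overlaps both others. At 5 to 10 kb the shares were 0% of exonic, 1.16% of intronic and 12.2% of intergenic peaks, and beyond 10 kb they were 4% of exonic, 4.32% of intronic and 13.6% of intergenic peaks. Promoter peaks had a median pileup of 12 fragments, a median length of 363 bp and 29.8% with 15 or more fragments.

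The sequence around the summits was, at the median, richer in CpG and GC than exon sequence in general. In a window of 201 bases around the summit, trimmed to the exon, the ratio of observed to expected CpG had a median of 0.587 (0.517 to 0.638) over 228 peaks with sequence, against 0.257 over 295796 windows laid end to end along all canonical exons more than 1000 bp from a TSS. The GC share was 64.7% (63.2 to 65.6) at the peaks, against 44.8% over all windows. The difference held for coding windows alone: the CpG ratio was 0.655 (0.604 to 0.734) at 140 peaks and 0.350 over all coding windows, and the GC share 65.7% against 48.8%. Among coding windows beyond 10 kb the ratio was 0.645 (0.499 to 0.715) at 16 peaks, against 0.327 over all.

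The median CpG ratio was highest in the positions with the highest median pileup. The median ratio was 0.885 (0.635 to 0.934) in single-exon transcripts, 0.763 (0.499 to 0.873) in first exons, 0.604 (0.516 to 0.686) in inner exons and 0.510 (0.414 to 0.577) in last exons. Over all windows it was 0.266 in single-exon transcripts, 0.446 in first exons, 0.347 in inner exons and 0.207 in last exons. By distance, the ratio at the peaks was 0.647 (0.566 to 0.725) at 1 to 2 kb and 0.514 (0.402 to 0.619) at 2 to 5 kb. Farther out it was 0.507 (0.407 to 0.655) at 5 to 10 kb and 0.509 (0.373 to 0.646) beyond 10 kb. In the same 4 ranges the ratio over all windows was 0.306, 0.267, 0.245 and 0.238. Nearly all single-exon and first-exon peaks lay within 2 kb of a TSS, and the values by position were not matched for distance. Single peaks varied widely, and the windows at PPP1R15B, TFAP2A, SLC26A9 and 1 of the BHLHE40 peaks, picked with their values in view, had a ratio of 0. The TFAP2A window lay in a noncanonical retained-intron transcript, whereas the windows over all exons were canonical. In coding windows the ratio was 0.801 (0.638 to 0.946) at 28 peaks with 15 or more fragments and 0.659 (0.537 to 0.740) at 29 peaks with 8 or fewer, intervals that overlap. The GC share was raised at these peaks as well, and its part in these values was not tested.

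**Figure D4:**
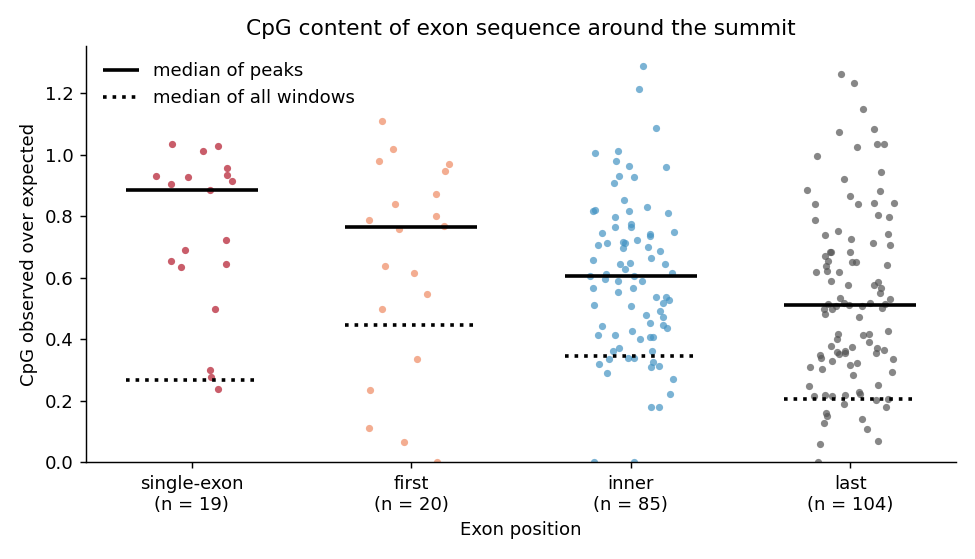
CpG observed over expected in the exon sequence within 100 bases of the summit, 1 point a peak, for the 228 exonic peaks with sequence, by exon position; solid lines are the medians of the peaks and dotted lines the medians of all exon windows of that position. The solid line lies above the dotted one in each position, at 0.885 against 0.266 in single-exon transcripts and 0.510 against 0.207 in last exons.

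Host genes of exonic peaks had a promoter peak more often than protein-coding genes in general, but not all of them had one. A gene counted as having one when a summit lay within 1000 bp of a TSS of that gene itself. By this count a promoter peak was found at 113 of the 220 host genes (51.4%, 44.6 to 58.1), where 30.8% of all protein-coding genes had one. The share was 64 of 113 for hosts with a peak at 1 to 2 kb (56.6%) and 10 of 24 beyond 10 kb (41.7%, 22.1 to 63.4). Of the 10 most significant exonic peaks, 4 belonged to a host with a promoter peak, IRS2, PIM1, CDKN2C and FOXC1, and 6 to a host without one, RHOB, LRFN4, IRF2BPL, MID1IP1, ZNF703 and ZFP36L2. The exonic peaks of RHOB, LRFN4, IRF2BPL, MID1IP1 and ZFP36L2 reached with an edge into the 1000 bp around a TSS, and that of ZNF703 did not. The ZFP36L2 peak also had a promoter peak 934 bp from its edge, which was not counted for that gene.

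Being outside a promoter by the summit did not always mean that the whole peak was. Of the 232 peaks, 41 (17.7%, 13.0 to 23.2) reached with an edge into the 1000 bp around a TSS, among them 10 of the 19 tallest. A separate promoter peak lay within 1000 bp of the edge of 56 peaks (24.1%), and 176 had none that near. The nearest TSS belonged to the host gene for 178 peaks, to another protein-coding gene for 32 and to a long noncoding RNA for 22. RefSeq placed a gene start within 1000 bp of 6 summits, in spite of the GENCODE distance: at SOCS3, DNAAF2, ANPEP and TULP1, and at both peaks of PELO, whose antisense gene PELO-AS1 starts there.

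At the 1000 bp limit the heights overlapped. Just outside it, the summit at BMP2 (1001 bp) had 17 fragments, that at KLHL21 (1002 bp) 16 and that at ANPEP (1003 bp) 8. Just inside it, the exonic summit at RASSF3 (999 bp) had 11 fragments, that at MISP3 (991 bp) 10 and that at DEDD2 (980 bp) 16, and all 3 counted as promoter peaks. There were 19 exonic peaks in the first 100 bp outside the limit and 25 exonic summits in the last 100 bp inside it.

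There were 12 genes that held 2 exonic peaks each. BMP2, a bone morphogenetic ligand gene without a promoter peak, had 17 fragments in the 5′ UTR of its first exon and 18 in exon 2. SOCS3, an inhibitor of cytokine signalling, had 15 in the coding part and 9 in the 3′ UTR of its last exon. BHLHE40, a transcriptional repressor gene of the clock, had 9 in exon 4 and 17 in exon 5. RBM15, an RNA-binding factor gene of the m6A writer complex, had 13 and 12 in its long first exon, and the transcription factor gene ZBTB7B had 13 in exon 2 and 10 in exon 3. In these 5 genes the pairs differed by at most 8 fragments.

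SETD1B, a methyltransferase gene for lysine 4 of histone H3, had 12 fragments in exon 4 and 9 in exon 6 of 17. The ribosome rescue factor gene PELO had 9 in each of 2 exons, the alkaline phosphatase gene ALPI 11 in each of 2, and the zinc finger gene RREB1 10 and 9 in its last 2 exons. ANPEP, an aminopeptidase gene, had 8 in exon 2 and 8 in exon 21. CAND2, a cullin exchange factor gene, had 10 and 8, and the interleukin receptor gene IL17RE had 18 in the 3′ UTR and 9 in an exon of a noncoding transcript. These 7 genes hosted mostly low peaks.

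Of all protein-coding genes, 1.12% hosted an exonic peak, and no gene list had an interval wholly above that share. C2H2 zinc finger symbols counted 6 hosts of 594 genes (1.01%, 0.372 to 2.19), of which ZFP36L1 and ZFP36L2 belong by symbol but carry CCCH fingers; ZNF703 led. Developmental transcription factor families counted 5 of 197 (2.54%, 0.829 to 5.82): FOXC1, then GATA6 with 16 fragments, GATA2 and HOXA11 with 15 each, and SOX4 with 13. Solute carriers counted 4 of 377 (1.06%), with 12 fragments at SLC7A5, 10 at SLC26A9 and 8 each at SLC9A5 and SLC8B1.

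Collagens counted 1 of 44 (COL5A1), protocadherins 2 of 63 (PCDH10 with 10 fragments and PCDHA2 with 7), and other chromatin genes 1 of 24 (SETD1B). Cytosolic ribosomal proteins counted 1 of 84, RPLP0, with 7 fragments in an exon of a noncoding transcript, although 70 of those 84 genes had a promoter peak. No exonic peak was found at 68 replication-dependent histone genes (upper bound 5.28%), 370 olfactory receptor genes (0.992%), 15 mucin genes (21.8%), 19 genes of the ING and MYST complexes (17.6%) or the 18 hepatocyte markers (18.5%). All but the olfactory receptor bound lay above the 1.12% of all genes, so most of these lists were too small to show fewer hosts. By the rule, a gene without exon sequence more than 1000 bp from every TSS cannot host such a peak. The amount of that sequence was not counted for any list, so no shortage of hosts can be read from them, olfactory receptors included.

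By chromosome, exonic peaks made up 4.71% of peaks on chromosome 19 (21 of 446, 2.94 to 7.11), 4.21% on chromosome 6 (16 of 380) and 4.06% on chromosome 15 (14 of 345). On chromosome 21 there were none among 121 peaks (upper bound 3.003%). The share over all chromosomes outside the dense stretches was 2.86%, and it lay inside the interval of chromosomes 6 and 15 but just under that of chromosome 19, 1 of 23 chromosomes examined.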

How the data were processed

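ING5 ChIP-seq and input DNA libraries from HepG2 cells were sequenced, 1 each, and 1 peak list was deposited. Per the file headers, the authors called peaks against the input in MACS2 (2.1.1.20160309), from read pairs, with p set to 1e-05. Other tools, per the submitters' processing notes, were fastp 0.19.6, Bowtie2 and deepTools. The deposited pileup is a coverage signal in fragments, the deposited fold enrichment a linear ratio to local background, and significance is the deposited −log10 p-value; the deposited −log10 q column was not used. These values, all the authors', serve only to describe or rank peaks.

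The labels name GRCh37, but a protein-coding TSS was within 1000 bp for 76.0% of summits at GRCh38 positions and 13.7% at GRCh37 positions, so the list was read as GRCh38. Gene positions were the original GRCh38 ones recorded in GENCODE 44; 17391 of 1650930 exon records had none. Exon position came from the canonical transcript where the summit lay in one of its exons, otherwise from the longest coding transcript. Where no coding transcript had an exon under the summit, the longest transcript of any type was used. Local background was pileup and fold solved with a pseudocount of 1, and values within 0.001 of 0.853 counted as genome-wide. Base content used windows of 50 to 201 bases of GENCODE transcripts, joined by identifier. Shares have exact Clopper-Pearson and rates exact Poisson 95% intervals, medians an order-statistic interval. The code for the classes was checked on simulated summits near a TSS or in canonical exons of a single gene, from the same annotation. Such a check cannot cover summits in noncanonical exons or in exons of several genes. Peaks were named by rule: the 10 most significant, the 3 most significant of each exon position, the 3 longest and 3 shortest, the 3 on each side of the 1000 bp limit, genes with 2, and up to 3 of each gene list. Ties were ordered by length. Members and lists were chosen with earlier results of these data known. Python 3.11.15, pandas 2.3.3 and scipy 1.17.1 were used.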

Additional observations from a re-analysis of the deposited data

Results flagged for a closer look

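The dense stretches of chromosomes 5 and 11 that were left out hold 23 further peaks that meet the rest of the rule, 17 on chromosome 5 and 6 on chromosome 11. They had a median pileup of 12 fragments and a median enrichment of 4.94-fold over a median local background of 1.56 fragments, and all 23 stood above the genome-wide background. They entered none of the comparisons and were singled out as signal in data not otherwise used; no explanation was tested.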

How the results depend on the processing

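No paired analysis was possible because each group has 1 library. Of 100 recomputed values under 10 alternatives, 54 stayed within the interval of the reported value (counts within 1.5 times) and 46 did not. Requiring at least as much of the peak in exons as outside, exons of protein-coding transcripts, or keeping the dense stretches moved none of the 10 values, and canonical exons moved only the rate, to 3.85 peaks per Mb. The limit around the TSS set the size and make-up of the group. At 500 bp there were 492 exonic peaks, 13.0% in single-exon transcripts, 22.4% in first and 32.9% in last exons, with a median pileup of 11, a median length of 320.5 bp, 6.19 peaks per Mb and 36.5% of hosts with a promoter peak by that limit. At 2000 bp there were 117, with 0.855% in single-exon transcripts, 0.855% in first and 57.3% in last exons, a median pileup of 9, a median length of 240 bp and 1.999 peaks per Mb.

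Stricter lists keep taller peaks by construction. The more significant of 2 equal parts kept 70 exonic peaks (18.6% single-exon, 15.7% first, 28.6% inner, 37.1% last; medians of 15.5 fragments, 8.63-fold and 502.5 bp; 0.996 per Mb). Fold at or above the median kept 77 (15.6% single-exon, 14.3% first, 29.9% inner; 15 fragments, 7.79-fold, 510 bp; 1.10 per Mb). The 1000 most significant kept 24 (33.3% single-exon, 20.8% inner, 33.3% last; 29 fragments, 15.6-fold, 996.5 bp; 0.342 per Mb), with a promoter peak of that set at 12.5% of hosts. Peaks at the genome-wide background alone gave 3.75% single-exon, 45.0% inner, 2.28 per Mb and 41.9% of hosts with a promoter peak; the cause was not tested. At the low end, 62 of the 232 peaks rest on 8 fragments or fewer; no other depth was examined.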
